A study of Mus musculus with 12 samples.

Results

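Collagens are the main structural proteins of the extracellular matrix. The genes described here are the protein-coding genes of the deposited table whose mouse symbol consists of Col, a number, the letter a and a number, as in Col24a1. This rule gave 44 genes of 19775 in the table, or of 15779 protein-coding genes, and they are all 44 collagen genes of this form in the GENCODE M21 annotation of GRCm38. They were divided into 11 fibrillar collagens, 8 basement membrane collagens (the 6 type IV chains with Col15a1 and Col18a1) and 25 other collagens.

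Poly-A RNA was sequenced from the whole brains of male C57BL/6N mice at about postnatal day 120, 4 each of wild type (WT), Slc6a20a heterozygotes (HT) and Slc6a20a homozygotes (HM). The mutant allele lacks exon 3 of Slc6a20a, which encodes a transporter of proline and glycine, and all mice came from crosses between heterozygotes. The labels give no treatment, and WT mice carry no mutant allele. Slc6a20a itself stood at 679 ± 70.1 (WT), 345 ± 29.1 (HT) and 64.5 ± 9.95 (HM) normalized counts (mean ± SD, n = 4 mice each, as in all values with ± below, unless SE is written). Whole brain holds meninges, blood vessels and choroid plexus besides neurons and glia, and fewer cells of a type cannot be told apart from less RNA per cell in such samples.

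Collagen chains wind around each other into a triple helix, which needs a glycine in each triplet of residues, and many of the other positions hold proline that is hydroxylated before folding. Fibrillar collagens have long unbroken helices and assemble into fibrils, in which the abundant types I, II and III are accompanied by the regulatory types V and XI. Type IV collagen forms the sheet-like network of basement membranes, and in the brain these membranes surround vessels and underlie the pia. FACIT collagens (fibril-associated, with interrupted helices) attach to fibrils, type VI collagen forms beaded filaments, types VIII and X form short-chain networks, and types XIII, XVII, XXIII and XXV span the cell membrane.

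The glycine repeat distinguishes these classes in the coding sequences themselves. In the longest complete coding sequence of each gene, the longest unbroken run of triplets that start with a glycine codon (GGN) was 337 to 344 triplets in 9 fibrillar genes and shorter in the fibrillar genes Col24a1 (216 triplets) and Col27a1 (217 triplets). It was 30 to 66 triplets in basement membrane genes and 23 to 113 triplets in the other collagen genes. Glycine codons made up a median of 24.5% of codons in fibrillar, 27.6% in basement membrane and 21.3% in other collagens, and proline codons (CCN) 16.4%, 17.7% and 15.5%. The first 30 codons of this run are shown for Col24a1 and Col11a1, the fibrillar genes with the smallest p-values below, and for Col25a1, a membrane collagen and the only collagen gene that was higher in a mutant at an unadjusted p under 0.05. Capitals mark the glycine codon that starts each triplet. In Col11a1 the lower-case ggt after GGG is a glycine codon as well.
Col24a1: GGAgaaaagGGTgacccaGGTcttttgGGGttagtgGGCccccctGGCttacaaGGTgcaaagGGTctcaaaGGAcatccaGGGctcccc
Col11a1: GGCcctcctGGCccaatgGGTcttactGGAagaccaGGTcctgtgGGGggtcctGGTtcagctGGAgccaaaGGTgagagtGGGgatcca
Col25a1: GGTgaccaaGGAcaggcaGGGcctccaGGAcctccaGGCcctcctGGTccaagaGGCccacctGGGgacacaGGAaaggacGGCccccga
All 3 stretches are coding, on the plus strand of chromosome 3 of GRCm38. That of Col24a1 lies in 3 exons between 145325728 and 145337844, that of Col11a1 in 2 exons between 114105402 and 114108325, and that of Col25a1 in 1 exon from 130476369 to 130476458. The residue after glycine is encoded by a proline codon in 1 of these triplets of Col24a1, in 3 of Col11a1 and in 6 of Col25a1, and the residue before the next glycine by one in 4 triplets of each.

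**Figure D1:**
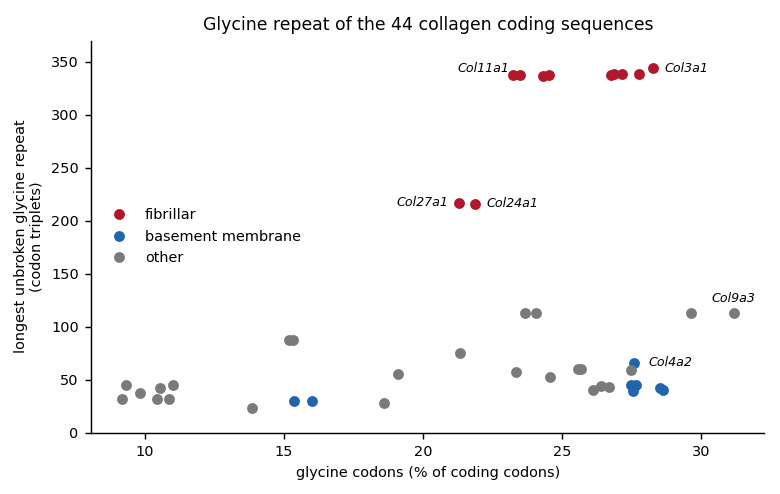
Longest unbroken glycine repeat (codon triplets, y axis) against the share of glycine codons (percent of coding codons, x axis) in the 44 collagen coding sequences, one point per gene, coloured by class. Fibrillar genes lie at 216 triplets or more, with Col24a1 and Col27a1 below the other 9, and every other gene lies at 113 or fewer.

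All 44 collagen genes were detected, and the 12-mouse mean of each reached 10 normalized counts. Together they held 24005 to 28915 normalized counts per mouse, or 0.0715% to 0.0869% of all normalized counts. Levels are compared between genes only as normalized counts per kb, of the longest annotated transcript unless the median one is named. On this scale Col6a1, the first chain of type VI collagen, was highest at 836, followed by Col4a2 (553), Col25a1 (375), Col4a1 (346) and Col16a1 (318). The ranges over the 12 mice of Col25a1, Col4a1 and Col16a1 overlapped one another. The same 5 genes led, in another order, with the median transcript as length.

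Per kb of the longest transcript, the highest levels belonged to types VI, IV, XXV and XVI, and the main fibril-forming chains of types I, II and III were lower. Col11a2 (218 per kb), Col5a1 (194) and Col11a1 (150.3), chains of the regulatory types XI and V, were the highest fibrillar genes on this scale. Col1a1 and Col1a2, the chains of type I collagen of bone, skin and meninges, had 57.8 and 115 per kb, and Col3a1 and Col2a1 had 19.7 and 18.1. This order was not the same with the median annotated transcript as length. That median counts all annotated transcripts, and for Col1a1 it is 428 bp, too short for its coding sequence of 1453 codons. Levels per kb of the median transcript may thus overstate such genes. With the median transcript as length, Col1a1 had 802 per kb and was the highest fibrillar gene, next to Col25a1 at 807 and above Col11a1 (546), Col5a1 (345) and Col11a2 (258). The lowest per kb of the longest transcript were Col10a1 of growth plate cartilage (3.29) and Col6a6 (3.11). Fibrillar genes gave 20.5% of the collagen level per kb, basement membrane genes 22.9% and other genes 56.6%. With the median transcript as length the shares were 17%, 43.1% and 39.9%, so the order of the last 2 classes was not the same. The median transcripts of Col4a1 and Col4a2, at 647 and 921 bp, are likewise too short for their coding sequences of 1669 and 1707 codons. Variation between mice was smallest for Col6a1, with a coefficient of variation of 6.59% over the 12 mice, and largest for Col10a1 (44.5%) and Col6a4 (39.4%).

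**Figure D2:**
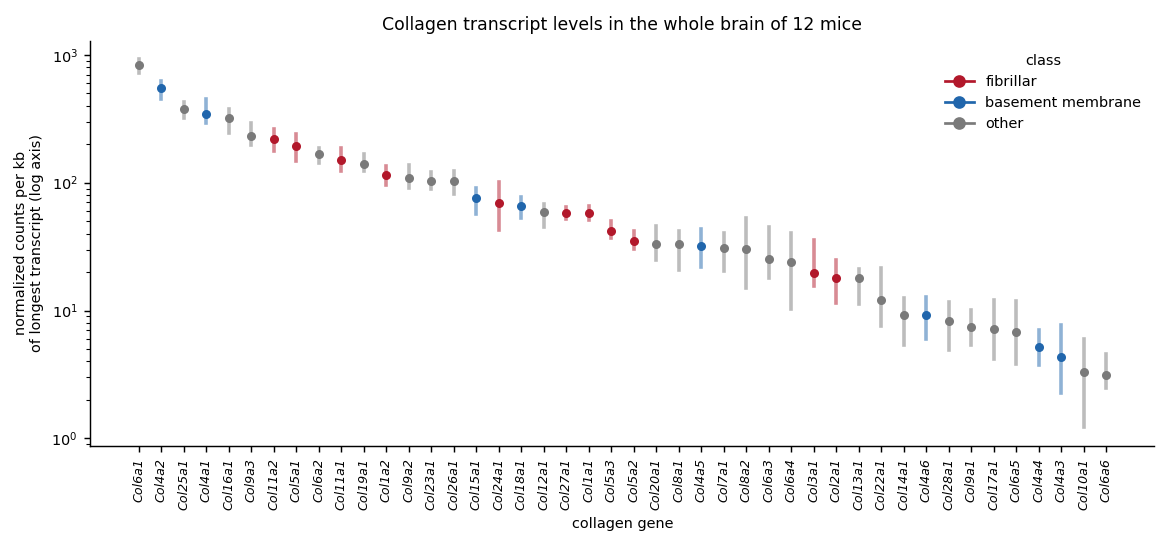
Level of each collagen gene as normalized counts per kb of the longest transcript (log axis), ordered from high to low. Points are means and bars the lowest to highest of 12 mice, with fibrillar genes red, basement membrane genes blue and other genes grey. Col6a1 leads at 836 and Col6a6 is lowest at 3.11.

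Expression in HT and HM mice was compared with that in WT mice to ask how loss of 1 or both copies of the transporter relates to collagen transcripts. Most collagen genes had lower means in both mutants, by small amounts, and no collagen gene passed the adjusted threshold in any comparison. Across all genes, 1 of 18004 passed it in HT against WT (0.00555%), 2 of 18004 in HM against WT (0.0111%) and 1 of 17986 in HM against HT (0.00556%), by limma on log2(normalized count + 1) with Benjamini-Hochberg (BH) adjustment and a threshold of 0.05. The paper on these mice used DESeq2 with an adjusted p under 0.05. It lists Col24a1 as lower in HT mice and Col11a1 as lower in HM mice. No count model was fitted here, so the calls differ in method. The same 4 WT mice served both comparisons with WT, so a WT mouse that is high for a gene lowers both of its fold changes. Labels do not say whether mice within a genotype were littermates.

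At an unadjusted p under 0.05 (limma), 7 of 44 collagen genes were lower and 1 was higher in HT mice, where 3.26% of all genes were lower and 3.16% higher. The 7 were Col24a1, Col11a1, Col5a1, Col4a1, Col4a2, Col6a1 and Col16a1, and the higher gene was Col25a1. In HM mice 8 of 44 were lower (Col24a1, Col11a1, Col4a5, Col6a3, Col6a4, Col8a2, Col9a1 and Col26a1), against 3.05% of all genes, and none was higher, against 3.93%. As shares of the collagen genes these counts are 15.9% lower in HT and 18.2% lower in HM mice. Both counts hold Col24a1 and Col11a1, which the paper had listed for these mice. The collagen genes were chosen with that known, so these shares are not an independent test. The HT count depended on single mice. Without HT replicate 1 it was 5 in either direction in place of 8, all among the 8, and without WT replicate 2 it was 5, of which 4 were among the 8 and the other was Col3a1. With each of the 8 mice left out in turn, Col24a1, Col11a1 and Col6a1 kept an unadjusted p under 0.05 in HT mice, as did all genes of the HM list but Col8a2 and Col26a1. In a fit with a block for the start of the animal number, however, only 3 of the 8 genes of the HM list kept it.

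The direction was shared by many genes that did not reach this p. The log2 fold change was below 0 for 32 of 44 collagen genes in HT mice (72.7%, against 50.0% of all genes) and for 32 of 44 in HM mice (72.7%, against 50.2%). By class, 8 of 11 fibrillar, 6 of 8 basement membrane and 18 of 25 other genes were below 0 in HT mice, and 8, 7 and 17 in HM mice. The median log2 fold change was -0.08 in fibrillar, -0.19 in basement membrane and -0.12 in other genes in HT mice, and -0.12, -0.13 and -0.09 in HM mice, where the median of all genes was within 0.01 of 0. Single mice moved several of these medians. Without WT replicate 4 the fibrillar median in HT mice was -0.013, and without HT replicate 4 it was -0.03, whereas it was -0.12 without HT replicate 2 and -0.13 without HT replicate 3. The basement membrane median in HT mice was -0.11 and the median of other genes -0.026 without HT replicate 1. In HM mice the fibrillar median was -0.05 without WT replicate 3 and -0.08 without WT replicate 4. Summed collagen counts were 27429 to 28915 in WT, 24005 to 27858 in HT and 25891 to 27148 in HM mice. Every HM mouse thus lay below every WT mouse, while 1 HT mouse, replicate 3, lay within the WT range.

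**Figure D3:**
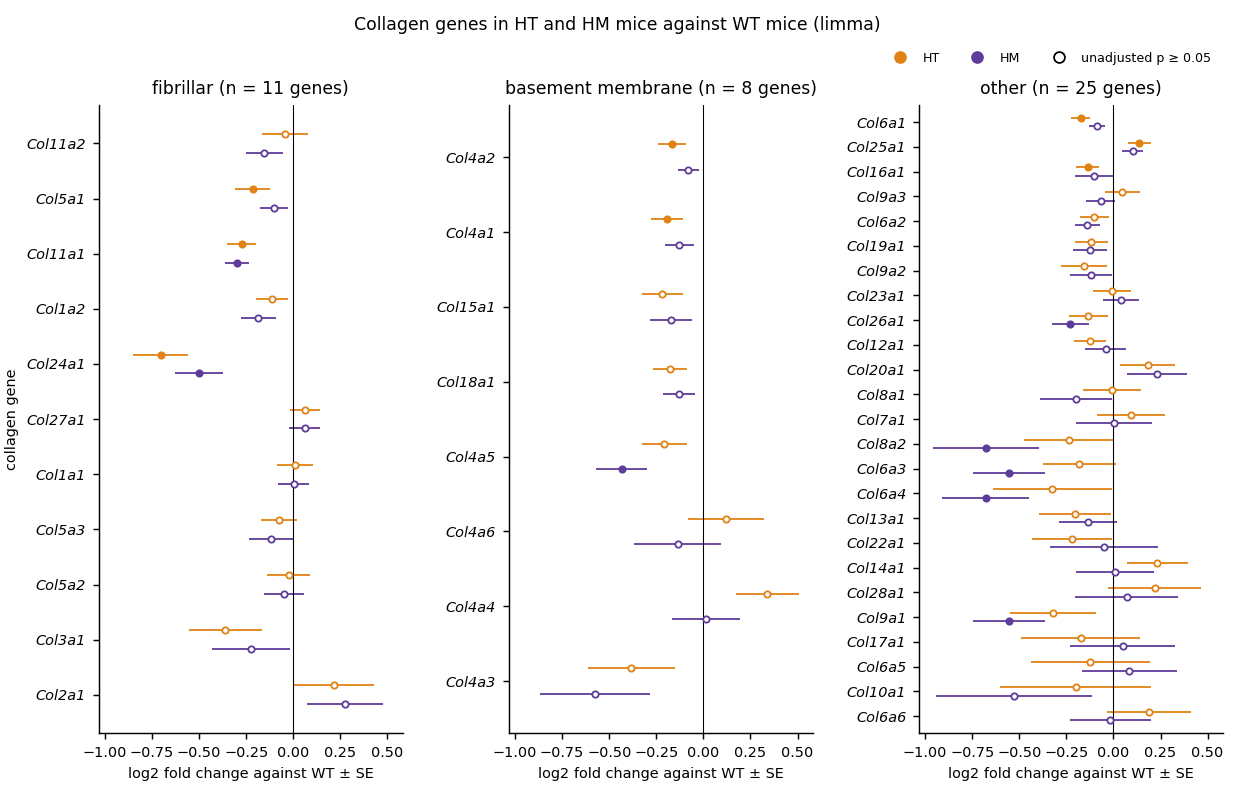
Log2 fold change against WT (x axis, log2 scale) with its SE for every collagen gene in HT (orange) and HM (purple) mice, in one panel per class ordered by level per kb. Filled points have an unadjusted limma p under 0.05. Most points lie left of 0, and Col24a1 in HT mice lies furthest left, at -0.71.

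Among the 8 fibrillar collagens with log2 fold changes below 0 in both mutants, Col24a1 and Col11a1 were those with an unadjusted p under 0.05 in both. Col24a1 (ENSMUSG00000028197, chromosome 3, 145292472 to 145552011, plus strand) encodes a minor fibrillar chain known from developing bone and cornea. It had 659, 525, 642 and 724 normalized counts in WT replicates 1 to 4, 412, 303, 523 and 348 in HT replicates and 366, 448, 575 and 423 in HM replicates. All HT mice lay below all WT mice, whereas HM replicate 3 lay within the WT range, and replicate 3 was the highest of both mutants. Means were 638 ± 83.1 (WT), 396 ± 95.3 (HT) and 453 ± 88.6 (HM). This is a log2 fold change of -0.71 for HT against WT (SE 0.14, 95% interval -1.02 to -0.39, limma p = 0.000276, BH-adjusted p = 0.726, exact permutation p = 0.0286, the smallest that 4 mice against 4 allow). For HM against WT it was -0.50 (SE 0.13, 95% interval -0.78 to -0.22, limma p = 0.00186, BH-adjusted p = 0.553, exact permutation p = 0.0571). Without HT replicate 3 the HT value was -0.85 with an adjusted p of 0.0400 (limma, BH), the only setting of all those tried in which a collagen gene passed the threshold, and the adjusted p ranged from 0.0400 to 0.960 over the alternatives.

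Col11a1 (ENSMUSG00000027966, chromosome 3, 114030540 to 114220718, plus strand) encodes a chain of type XI collagen, which sets the diameter of cartilage fibrils and joins type V chains in other tissues. Normalized counts were 1443, 1377, 1202 and 1221 (WT), 942, 1135, 1167 and 1095 (HT) and 1066, 1031, 1107 and 1039 (HM). Every mutant mouse lay below every WT mouse, and the HM mice were the closest to one another. The gap to the lowest WT mouse was small, however, because HT replicate 3 at 1167 stood next to WT replicate 3 at 1202. For HT against WT the log2 fold change came to -0.27 (SE 0.08, limma p = 0.00366, exact permutation p = 0.0286, BH-adjusted p = 0.752), and for HM against WT to -0.30 (SE 0.06, limma p = 0.000457, exact permutation p = 0.0286, BH-adjusted p = 0.553). The exact p of 0.0286 is the smallest that 4 mice against 4 allow. Col24a1 and Col11a1 were 2 of the 3 collagen genes whose HT values all lay below the WT values (the other was Col6a1), where 1.91% of all genes did so, and Col11a1 and Col9a1 were those with all HM values below WT, where 1.81% of all genes did so.

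The promoter windows of both genes are given because they are the fibrillar genes with an unadjusted p under 0.05 in both mutants. Each is the RefSeq sequence of 300 bases around the gene's start, most of them before it, on GRCm38.p6 and along the gene's strand. Capitals mark motifs searched on both strands. The GC box was spelled GGGCGG in this search. The CCAAT box was searched by the 5 letters of its name, and the TATA box as TATAAA. Motifs did not overlap in the windows shown.
Col24a1, chr3:145292222-145292521, plus strand: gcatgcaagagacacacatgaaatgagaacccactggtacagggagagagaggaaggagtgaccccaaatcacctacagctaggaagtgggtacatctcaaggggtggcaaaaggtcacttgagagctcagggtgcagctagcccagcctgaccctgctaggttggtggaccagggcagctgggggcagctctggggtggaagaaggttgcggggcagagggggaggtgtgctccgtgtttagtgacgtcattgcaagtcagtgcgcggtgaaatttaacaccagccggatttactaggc
Col11a1, chr3:114030290-114030589, plus strand: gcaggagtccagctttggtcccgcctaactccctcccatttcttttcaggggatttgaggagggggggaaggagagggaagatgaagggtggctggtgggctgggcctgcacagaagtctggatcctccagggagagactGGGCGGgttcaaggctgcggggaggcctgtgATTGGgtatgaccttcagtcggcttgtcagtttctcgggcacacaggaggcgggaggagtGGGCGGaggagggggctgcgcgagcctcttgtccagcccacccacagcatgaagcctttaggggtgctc
The Col11a1 window holds 2 GC boxes and 1 CCAAT box on the opposite strand, and the Col24a1 window holds none of the 3 motifs. GC boxes were found in 35.7%, CCAAT boxes in 37.4% and TATA boxes in 13.6% of all 32851 windows. Of 38 windows of the 35 collagen genes that the table holds, 60.5% held a GC box, 34.2% a CCAAT box and 13.2% a TATA box.

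The other fibrillar collagens had larger unadjusted p-values against WT. Col5a1 (ENSMUSG00000026837, chromosome 2, 27886425 to 28039514, plus strand), whose chain starts and limits fibrils of type I collagen, had normalized counts of 1728, 1633, 2024 and 1625 (WT), 1252, 1581, 1724 and 1496 (HT) and 1490.3, 1677, 1732 and 1614 (HM). Its HT values overlapped the WT values through HT replicate 3, and HT replicate 1 was the lowest of the 12. On the log2 scale the HT mean minus the WT mean was -0.22 (SE 0.09, limma p = 0.0355, exact permutation p = 0.114, BH-adjusted p = 0.77), and the HM mean -0.10 (SE 0.07, exact permutation p = 0.343). Without HT replicate 1 the HT value was -0.13, and the unadjusted p was over 0.05 without HT replicate 1 or 4 or WT replicate 1 or 3. Col11a2 (ENSMUSG00000024330, chromosome 17, 34039437 to 34066685, plus strand), the type XI chain with the highest fibrillar level per kb of the longest transcript, had normalized counts of 1314, 1178, 1399 and 1601 (WT), 1078, 1559.7, 1578 and 1162 (HT) and 1118, 1362, 1084 and 1368 (HM). These values overlapped throughout, with HT replicates 2 and 3 high and 1 and 4 low, and the log2 fold changes were -0.04 (95% interval -0.31 to 0.22) in HT and -0.15 (-0.37 to 0.06) in HM mice.

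Col1a1 had mean normalized counts of 342 ± 28.1 (WT), 345 ± 39 (HT) and 342 ± 22.6 (HM), and the 95% intervals of its log2 fold changes, -0.20 to 0.21 in HT and -0.18 to 0.18 in HM mice, leave out a difference of the size seen for Col24a1. Its partner Col1a2 had log2 fold changes of -0.11 in HT and -0.19 in HM mice (exact permutation p = 0.143 in HM mice). Col27a1, which like Col24a1 has a shortened repeat, stood at 0.06 in HT and 0.06 in HM mice. Col2a1 of cartilage and vitreous had the highest fibrillar log2 fold changes, 0.22 and 0.28, and Col3a1 of vessel walls had -0.36 and -0.23. The limma p was 0.0871 or more for each of these values of Col27a1, Col2a1 and Col3a1 and for both values of Col5a2 and Col5a3, which lay between -0.12 and -0.02.

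**Figure D4:**
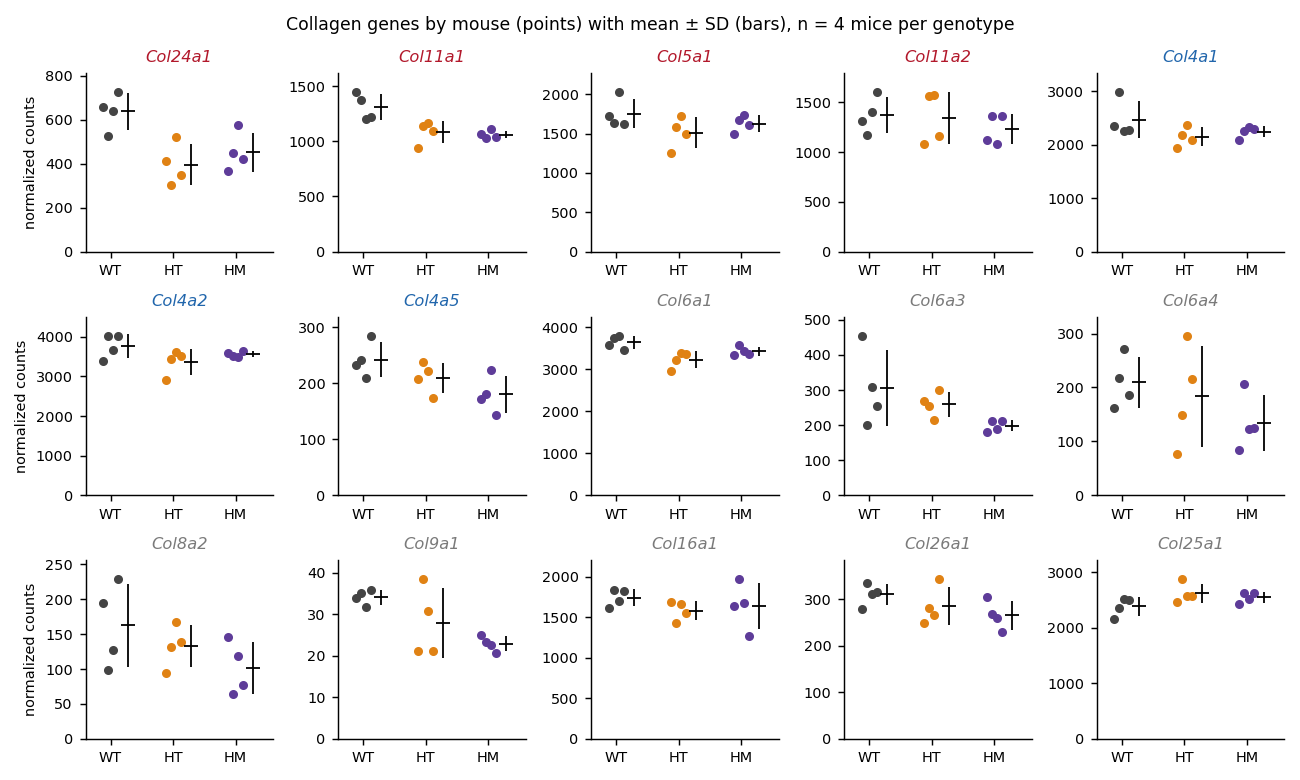
Normalized counts in each mouse for the 15 collagen genes described one by one, with WT grey, HT orange and HM purple points, and the mean and SD as a bar to the right of each group (n = 4). Gene names are red for fibrillar, blue for basement membrane and grey for other collagens. Groups separate for Col24a1 (HT below WT), Col11a1 (both mutants below WT), Col6a1 (HT below WT), Col9a1 (HM below WT) and Col6a3 (HM below HT), and overlap in every other contrast drawn.

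In the basement membrane class, the vascular chains Col4a1 and Col4a2 had lower means at an unadjusted p under 0.05 in HT mice and Col4a5 in HM mice. Col4a1 and Col4a2 encode the 2 chains of the type IV trimer found in nearly all basement membranes, and mutations of either cause disease of small brain vessels. Col4a1 (ENSMUSG00000031502, chromosome 8, 11198423 to 11312826, minus strand) had normalized counts of 2347, 2983, 2261 and 2281 (WT), 1949, 2188, 2371 and 2083 (HT) and 2092, 2263, 2335 and 2295 (HM). WT replicate 2 stood far above the other 11 mice, and the other WT mice lay within 2261 to 2347, a range that held HM replicates 2, 3 and 4 and lay just under HT replicate 3. In HT mice the difference from WT was -0.19 on the log2 scale (SE 0.08, limma p = 0.0389, exact permutation p = 0.143, BH-adjusted p = 0.77), and -0.10 without WT replicate 2. The unadjusted p was over 0.05 without that mouse and without HT replicate 1, 2 or 4. In HM mice it was -0.13 (exact permutation p = 0.343) and, without WT replicate 2, -0.03.

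Col4a2 (ENSMUSG00000031503, chromosome 8, 11312805 to 11449287, plus strand) had normalized counts of 3382, 4020.1, 3661 and 4024 (WT), 2898, 3437, 3609 and 3517 (HT) and 3599, 3505, 3488 and 3647 (HM). WT replicates 2 and 4 were the highest and HT replicate 1 the lowest, while the HM mice were close together inside the WT range. Set against WT, the log2 difference was -0.17 for HT (SE 0.07, limma p = 0.0389, exact permutation p = 0.171, BH-adjusted p = 0.77) and -0.08 for HM (SE 0.05, exact permutation p = 0.286). Without HT replicate 1 the HT value was -0.096, and the unadjusted p was over 0.05 without that mouse or without WT replicate 2 or 4.

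The 2 genes lie head to head, with their annotated 5′ ends 21 bp apart, and their promoter windows overlap by 78 bp (chr8:11312777-11312854). They are shown with the same capitals as above, each along the strand of its own gene, because they share these 78 bp, read in opposite directions.
Col4a1, chr8:11312777-11313076, minus strand: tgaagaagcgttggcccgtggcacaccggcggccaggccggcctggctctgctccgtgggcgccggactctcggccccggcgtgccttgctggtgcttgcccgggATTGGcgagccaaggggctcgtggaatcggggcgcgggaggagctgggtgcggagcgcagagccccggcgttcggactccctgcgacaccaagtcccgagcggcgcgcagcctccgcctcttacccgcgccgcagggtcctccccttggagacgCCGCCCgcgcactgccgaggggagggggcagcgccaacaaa
Col4a2, chr8:11312555-11312854, plus strand: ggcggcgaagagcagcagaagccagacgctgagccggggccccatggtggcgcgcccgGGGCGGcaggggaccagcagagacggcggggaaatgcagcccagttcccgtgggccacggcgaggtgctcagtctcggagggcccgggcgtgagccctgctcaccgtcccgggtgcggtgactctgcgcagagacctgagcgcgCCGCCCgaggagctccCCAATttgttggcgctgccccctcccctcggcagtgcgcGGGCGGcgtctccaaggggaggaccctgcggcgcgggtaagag
The Col4a1 window holds 1 GC box and 1 CCAAT box, and that of Col4a2 holds 3 GC boxes and 1 CCAAT box. The GC box near the end of the Col4a1 window is the same site as the last of the Col4a2 window. Col4a3 and Col4a4 lie head to head too, with 5′ ends 72 bp apart, as do Col4a5 and Col4a6, 1309 bp apart.

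Col4a5 (ENSMUSG00000031274, chromosome X, 141475385 to 141689234, plus strand), which joins the kidney and lens networks of type IV collagen and is mutated in Alport syndrome, had normalized counts of 233, 241, 210.1 and 284 (WT), 207, 237, 221 and 174 (HT) and 172, 181, 224 and 144 (HM). HM replicate 3 lay inside the WT range and the other 3 HM mice lay below it. For HM against WT the log2 fold change came to -0.43 (SE 0.14, limma p = 0.00724, exact permutation p = 0.0571, BH-adjusted p = 0.65), and for HT against WT to -0.21 (SE 0.12, exact permutation p = 0.2).

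None of the remaining 5 basement membrane genes reached an unadjusted p of 0.05. Col15a1 and Col18a1, whose cleaved ends restrain vessel growth, had log2 fold changes of -0.22 and -0.18 in HT mice and -0.17 and -0.13 in HM mice. Col4a4 was the basement membrane gene with the highest log2 fold change in HT mice, 0.34, and had 0.02 in HM mice. Its head-to-head neighbour Col4a3 had -0.38 and -0.57, and both had few counts, with means of 37.4 for Col4a3 and 52.4 for Col4a4 over the 12 mice. Col4a6 had 0.12 and -0.14.

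Of the type VI chains, Col6a1 had a lower mean at an unadjusted p under 0.05 in HT mice, and Col6a3 and Col6a4 in HM mice. Col6a1 (ENSMUSG00000001119, chromosome 10, 76708792 to 76726168, minus strand) had normalized counts of 3580.0, 3729, 3790.1 and 3453 (WT), 2947, 3225, 3384 and 3349.8 (HT) and 3336, 3574, 3426 and 3349 (HM). All HT mice lay below all WT mice, while HM replicate 2 lay within the WT range. In HT mice the difference from WT was -0.17 on the log2 scale (SE 0.05, limma p = 0.00462, exact permutation p = 0.0286, BH-adjusted p = 0.765), and in HM mice it was -0.09 (SE 0.04, exact permutation p = 0.0571). Its neighbour and partner chain Col6a2 had -0.10 in HT and -0.14 in HM mice (exact permutation p = 0.314 and 0.114).

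Col6a3 (ENSMUSG00000048126, chromosome 1, 90765923 to 90843971, minus strand), the large chain of the type VI trimer, had normalized counts of 454, 201, 309.6 and 256 (WT), 268, 255, 214 and 299 (HT) and 182, 213, 188 and 212 (HM). WT replicate 1 was the highest mouse and WT replicate 2 lay among the HM values. On the log2 scale the HM mean minus the WT mean was -0.56 (SE 0.19, limma p = 0.0125, exact permutation p = 0.0857, BH-adjusted p = 0.655), and the HT mean -0.18 (SE 0.19, exact permutation p = 0.6). Without WT replicate 1 the HM value was -0.34, and the HT value turned to 0.03. Col6a4 (ENSMUSG00000032572, chromosome 9, 105989454 to 106096783, minus strand), a chain that can take the place of Col6a3, had normalized counts of 161, 218, 272 and 185 (WT), 75.6, 149, 296 and 216 (HT) and 83.7, 207, 123 and 125 (HM). The HT mice spread over the whole range of the other genotypes, with replicate 1 at the bottom and replicate 3 at the top. Set against WT, the log2 difference was -0.68 for HM (SE 0.23, limma p = 0.012, exact permutation p = 0.0857, BH-adjusted p = 0.655) and -0.32 for HT (SE 0.32, exact permutation p = 0.571). With a mouse left out, the HT value ran from -0.61 to 0.04, the latter without HT replicate 1. Col6a5 and Col6a6, related chains with low counts, had -0.12 and 0.19 in HT mice and 0.08 and -0.02 in HM mice.

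Among the short-chain network collagens, Col8a2 (ENSMUSG00000056174, chromosome 4, 126286793 to 126314330, plus strand), a chain of type VIII collagen of the cornea and vessel walls, had normalized counts of 195, 98.9, 128 and 228 (WT), 95, 131, 168 and 139 (HT) and 145, 64.6, 118 and 76.4 (HM). The genotypes overlapped, and HM replicates 2 and 4 were the lowest of the 12 mice. For HM against WT the log2 fold change came to -0.68 (SE 0.28, limma p = 0.0328, exact permutation p = 0.143, BH-adjusted p = 0.673), and for HT against WT to -0.24 (SE 0.24, exact permutation p = 0.486). The unadjusted p was over 0.05 in 4 of 8 fits with a mouse left out. HM replicates 2 and 4 had the lowest summed level of 12 choroid plexus markers as well, 10303 and 10629 normalized counts against 13143 to 21038 in the other 10 mice, and the part of this in the Col8a2 values was not tested beyond the correlation given in the closing section. Col8a1 had -0.01 and -0.20, and Col10a1, at a mean of 10.3 normalized counts over the 12 mice, -0.20 and -0.53.

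In the FACIT group, 6 of 9 genes had log2 fold changes below 0 in HT mice and 7 of 9 in HM mice, and Col16a1 in HT mice and Col9a1 in HM mice were those with an unadjusted p under 0.05. Col9a1 (ENSMUSG00000026147, chromosome 1, 24177610 to 24252684, plus strand), a chain of type IX collagen that decorates type II fibrils, had normalized counts of 33.8, 35.1, 31.7 and 35.8 (WT), 21.2, 38.4, 30.9 and 21.2 (HT) and 25, 23.4, 22.7 and 20.6 (HM). All HM mice lay below all WT mice, and the HT mice spread from the HM range to above the WT values. In HM mice the difference from WT was -0.56 on the log2 scale (SE 0.19, limma p = 0.0124, exact permutation p = 0.0286, BH-adjusted p = 0.655), and in HT mice it was -0.32 (SE 0.23, exact permutation p = 0.257). Its partner chains Col9a2 and Col9a3 had -0.12 and -0.07 in HM mice (exact permutation p = 0.429 and 0.429), at levels per kb of 109 and 231 against 7.39 for Col9a1.

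Col16a1 (ENSMUSG00000040690, chromosome 4, 130047840 to 130099283, plus strand), which links fibrils to cells, had normalized counts of 1613, 1832, 1699 and 1821 (WT), 1686, 1433, 1666 and 1551 (HT) and 1642, 1969, 1682 and 1266 (HM). HM replicates 2 and 4 were the highest and lowest of the 12 mice. On the log2 scale the HT mean minus the WT mean was -0.14 (SE 0.06, limma p = 0.0458, exact permutation p = 0.114, BH-adjusted p = 0.77), and the HM mean -0.10 (SE 0.10, exact permutation p = 0.6). Without HT replicate 2 the HT value was -0.09, and 5 of 8 fits with a mouse left out had an unadjusted p over 0.05. Col19a1, which interneurons make and which takes part in synapse formation, had -0.12 in HT and -0.12 in HM mice. Col12a1, Col14a1, Col20a1 and Col22a1 lay between -0.22 and 0.23 in both comparisons, with a limma p of 0.169 or more.

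Col25a1 (ENSMUSG00000058897, chromosome 3, 130131501 to 130599877, plus strand), a neuronal membrane collagen whose shed part is found in amyloid plaques, was the one collagen gene with a higher mean in a mutant at an unadjusted p under 0.05. It had normalized counts of 2149, 2355, 2521 and 2495 (WT), 2467, 2867, 2563 and 2569.7 (HT) and 2429.6, 2629, 2510.3 and 2632 (HM). WT replicate 1 was the lowest and HT replicate 2 the highest, and the other mice of the 3 genotypes overlapped. Set against WT, the log2 difference was 0.14 for HT (SE 0.06, limma p = 0.0407, exact permutation p = 0.0857, BH-adjusted p = 0.77) and 0.10 for HM (SE 0.05, exact permutation p = 0.143). Without WT replicate 1 the HT value was 0.09, and 5 of 8 fits with a mouse left out had an unadjusted p over 0.05. The other membrane collagens, Col13a1, Col17a1 and Col23a1, had -0.20, -0.17 and -0.01 in HT mice and -0.14, 0.05 and 0.04 in HM mice.

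Col26a1 (ENSMUSG00000004415, chromosome 5, 136741759 to 136883209, minus strand), a short collagen first described in gonads, had normalized counts of 279, 335, 312 and 316 (WT), 248, 281, 266 and 342 (HT) and 305, 269, 260.3 and 229 (HM). HM replicate 1 reached into the WT range and the other HM mice lay below it. For HM against WT the log2 fold change came to -0.23 (SE 0.10, limma p = 0.0397, exact permutation p = 0.0571, BH-adjusted p = 0.697), and for HT against WT to -0.13 (SE 0.10, exact permutation p = 0.314). The unadjusted p was over 0.05 in 6 of 8 fits with a mouse left out. Col7a1, the anchoring fibril collagen of skin, had 0.09 and 0.00, and Col28a1 of peripheral nerve had 0.22 and 0.07.

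HM and HT mice were compared directly to ask whether the 2 genotypes differ from each other. Among the 43 collagen genes with a mean of at least 10 in these 8 mice (Col10a1 did not reach it), only Col6a3 had an unadjusted p under 0.05, where 3.74% of all genes did, and its HM values all lay below its HT values, where 1.14% of all genes did so. Its log2 fold change was -0.37 (SE 0.11, limma p = 0.00492, BH-adjusted p = 1, exact permutation p = 0.0286). For Col24a1 the difference was 0.20 (95% interval -0.15 to 0.55, exact permutation p = 0.371), and for Col11a1 it was -0.03 (95% interval -0.17 to 0.11, exact permutation p = 0.8). Both intervals include 0, and that of Col24a1 spans differences from -0.15 to 0.55, so the order of the 2 mutants is not settled for either gene. Log2 fold changes were below 0 for 25 of 43 genes (58.1%, against 50.5% of all genes), with medians of -0.01 in fibrillar, -0.07 in basement membrane and -0.04 in other genes. The fibrillar median turned to 0.04 without HT replicate 3 and 0.02 without HM replicate 2, and the basement membrane median ran from -0.14 without HT replicate 1 to -0.016 without HM replicate 4. At its lowest the fibrillar median was -0.05, and that of other genes ran from -0.07 to -5.6e-05 over these fits with a mouse left out. With each mouse left out in turn, between 1 and 4 collagen genes reached an unadjusted p under 0.05.

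Chains that form one molecule, and besides them Col11a1 with Col24a1, were compared over the 12 mice, as deviations from the mean of each genotype on the log2 scale. By Pearson's r, Col8a1 with Col8a2 was highest of the pairs of chains (Pearson's r = 0.71, exact permutation p = 0.0289, Spearman's rho = 0.70, permutation p = 0.0325). Col1a1 with Col1a2 came next by r and was highest by rho (r = 0.64, exact permutation p = 0.04, rho = 0.71, permutation p = 0.00796). In a family of 11 relations both had a BH-adjusted p of 0.22 in the exact permutation test, and no relation reached an adjusted p under 0.05. With the 2 mice left out that lay farthest from the first gene's median, r was 0.54 for the type VIII chains and 0.77 for the type I chains.

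The neighbours Col4a1 and Col4a2 had r = 0.53 (rho = 0.52, exact permutation p = 0.166 and 0.164), and 0.32 without WT replicate 2 and HT replicate 3. Col6a1 with Col6a2 had r = 0.55 (rho = 0.43, exact permutation p = 0.161 and 0.23), and 0.39 without WT replicate 4 and HT replicate 1. The 4 other pairs of chains were lower, at r = 0.38 (rho = 0.30) for Col5a1 with Col5a2, 0.30 (rho = 0.27) for Col4a3 with Col4a4, 0.19 (rho = 0.26) for Col4a5 with Col4a6 and -0.03 (rho = -0.07) for Col11a1 with Col24a1. Exact permutation p-values of these r values were 0.309, 0.452, 0.574 and 0.939, and those of rho 0.388, 0.465, 0.475 and 0.85. For Col11a1 and Col24a1 the r pooled over 12 mice was 0.58, which includes the difference between genotypes. Without the 2 farthest mice these 4 values of r were 0.33, -0.11, -0.04 and 0.07.

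**Figure D5:**
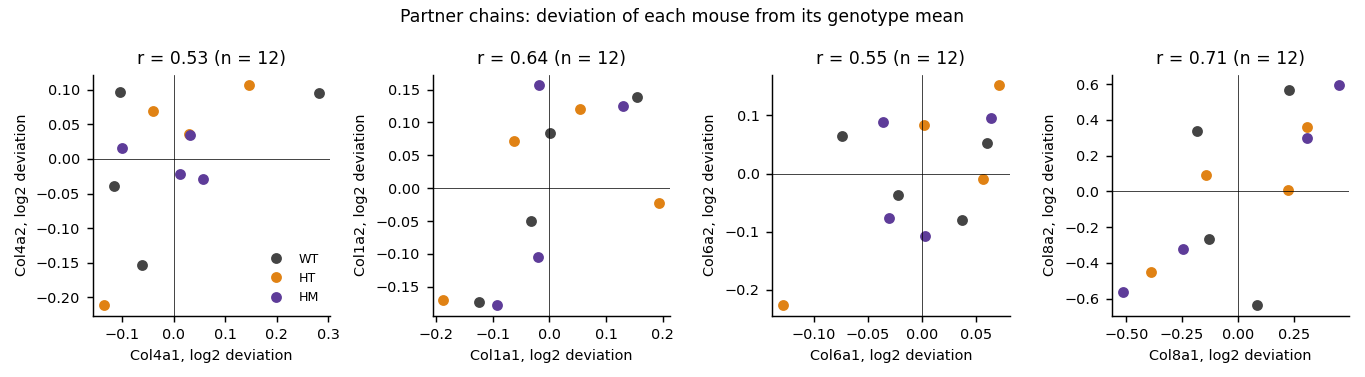
Deviation of each mouse from its genotype mean on the log2(normalized count + 1) scale for 4 pairs of partner chains, with one point per mouse (WT grey, HT orange, HM purple, n = 12). Pearson's r within genotypes is 0.53 for type IV, 0.64 for type I, 0.55 for type VI and 0.71 for type VIII chains.

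Genes that process, bind or degrade collagen were examined from 5 lists of 72 genes, of which 67 were tested against WT and 66 between the mutants. None passed the adjusted threshold (limma, BH). At an unadjusted p under 0.05, 2 were lower and 3 higher in HT mice, which is 7.46% of the lists against 6.42% of all genes. In HM mice none was lower and 2 were higher (2.99% against 6.99%), and between HM and HT mice 2 were lower and 6 higher (12.1% against 3.74%). In these lists 38 of 67 log2 fold changes were below 0 in HT and 31 of 67 in HM mice.

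For the 20 enzymes and chaperones that modify and fold the chains, such as prolyl and lysyl hydroxylases, the median log2 fold change was -0.03 in HT and 0.00 in HM mice, and no gene had an unadjusted p under 0.05 against WT. Between HM and HT mice P3h3, a prolyl 3-hydroxylase, had 0.13 and Colgalt2, which adds galactose to hydroxylysine, 0.20 (BH-adjusted p = 1 for both). Of the 12 genes tested for propeptide cleavage and crosslinking (medians 0.07 in HT and 0.07 in HM mice), Loxl3, a lysyl oxidase-like crosslinking enzyme, had normalized counts of 124 ± 18.5 (WT) and 163 ± 15.5 (HM). The difference was 0.40 on the log2 scale (SE 0.13, BH-adjusted p = 0.65), and between HM and HT mice it was 0.34 (BH-adjusted p = 1).

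None of the 10 tested collagen receptors, which include integrins and discoidin receptors, reached an unadjusted p of 0.05 in any comparison, and their medians were -0.01 in HT and 0.02 in HM mice. Among 11 genes of collagen degradation (medians -0.01 and 0.00), 3 reached it in HT mice, where 6.42% of all genes did. Timp2, an inhibitor of matrix metalloproteinases, had a log2 fold change of 0.12 (BH-adjusted p = 0.768), the membrane-type metalloproteinase Mmp15 had 0.15 (BH-adjusted p = 0.77), and Mmp9, which cleaves type IV and denatured collagen, had -0.60 (SE 0.21, BH-adjusted p = 0.768). Between HM and HT mice Mmp9 had 0.49 and Timp2 -0.06 (BH-adjusted p = 1 for both).

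The 14 partners of type IV collagen in basement membranes had medians of -0.01 in HT and 0.02 in HM mice. Lama2, a laminin chain of vessels and muscle, had normalized counts of 563 ± 65.0 (WT) and 471 ± 58.2 (HT), a log2 difference of -0.26 (SE 0.10, BH-adjusted p = 0.77). Lamb2, a laminin chain of vessels and synapses, had log2 fold changes of 0.19 in HT (BH-adjusted p = 0.77) and 0.20 in HM mice (BH-adjusted p = 0.702). Between HM and HT mice, the laminin chain Lama1 had -0.55 (SE 0.19), Nid1, which links laminin to type IV collagen, 0.28 and Pxdn, which crosslinks type IV collagen, 0.10 (BH-adjusted p = 1 for each).

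Markers of the cell types that make or accompany collagens were measured in the same mice, and their part in the collagen values was not tested unless a correlation is given. No marker was at 0 in any mouse, and none passed the adjusted threshold. The 14 markers of meningeal fibroblasts, the main source of type I collagen in brain samples, had a median log2 fold change of -0.05 in HT and -0.14 in HM mice, with 10 of 14 below 0 in both and summed levels of 5227 to 7497 in WT, 5407 to 6535 in HT and 5250 to 6775 normalized counts in HM mice. Col1a1 correlated with their mean at r = 0.52 within genotypes (rho = 0.59, exact permutation p = 0.0719 and 0.0327, BH-adjusted p of r = 0.264, and r = 0.61 without WT replicate 4 and HT replicate 1).

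Vascular markers had medians above 0 in both mutants, with 5 of 12 endothelial and 5 of 12 mural markers below 0 in HT mice, and their part in the Col4a1 and Col4a2 values was not tested beyond the correlation given here. The 12 endothelial markers had medians of 0.07 in HT and 0.05 in HM mice. At an unadjusted p under 0.05, 1 was lower (Slc2a1) and 1 higher (Tek) in HT mice. Of all genes, 3.26% were lower and 3.16% higher at this p in HT mice. In HM mice 2 endothelial markers were higher (Pecam1 and Flt1), where 3.93% of all genes were. Sums of the endothelial markers were 14587 to 15727 in WT, 14579 to 15664 in HT and 14837 to 16809 in HM mice. The 12 mural markers had medians of 0.07 and 0.06, with 4 of 12 higher in HM mice at an unadjusted p under 0.05 (Acta2, Rgs5, Abcc9 and Myh11), where 3.93% of all genes were higher, and sums of 6911 to 7914 in WT, 7257 to 7555 in HT and 7607 to 8300 in HM mice. Col4a1 correlated with the mean of the endothelial markers at r = -0.46 (rho = -0.12, exact permutation p = 0.39 and 0.754), and at -0.16 without WT replicate 2 and HT replicate 3.

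Choroid plexus markers had medians of -0.06 in HT and -0.46 in HM mice, with 11 of 12 below 0 in HM mice, 3 of them (Clic6, Kl and Ttr) at an unadjusted p under 0.05, where 3.05% of all genes were lower, and sums of 15870 to 20583 in WT, 13143 to 21038 in HT and 10303 to 18747 in HM mice. Of the olfactory bulb markers, 7 of 11 were higher in HM mice at this p, against 3.93% of all genes (median 0.63, sums 3921 to 4353 in WT and 4314 to 4978 in HM mice), while the median in HT mice was -0.15 with sums of 3849 to 4355. All 5 erythrocyte markers were lower in HT mice at this p, against 3.26% of all genes (median -0.83, sums 7780 to 21984 in WT and 6495 to 8717 in HT mice), and in HM mice the median was 0.16 with sums of 5859 to 29022. Their part in the collagen values was not tested.

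The 10 cerebellar markers had medians of 0.07 in HT and 0.06 in HM mice, with sums of 6817 to 7450 in WT, 7168 to 7842 in HT and 7071 to 7671 in HM mice. The 10 neuronal markers had 0.04 and 0.05, with sums of 261761 to 278387, 273097 to 285991 and 277431 to 284080. Col11a1 and the mean of the neuronal markers had r = 0.15 within genotypes (rho = 0.18, exact permutation p = 0.716 and 0.652), and r = 0.26 without WT replicate 3 and HT replicate 1.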

How the data were processed

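RNA libraries of 12 whole brains (TruSeq, poly-A selection) were sequenced as 100 bp paired reads. The authors estimated transcript abundance with Salmon 1.1.0 on GRCm38 with GC correction, summed it to genes with tximport and normalized it with DESeq2 1.30.1, and the deposited signal is this normalized count per gene and mouse. Whole reads could not be recovered from it, so library depth is unknown, read-based intervals were not computed and no count model was fitted. Homozygotes are headed KO in the table and called HM here. Symbols, positions, transcript lengths and coding sequences came from GENCODE M21 (19758 of 19775 identifiers found), and promoter windows from RefSeq on GRCm38.p6. The annotation release used by the authors is not given in the sources used here.

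Genotypes were compared in pairs with limma 3.58.1 (R 4.3.3, variance prior following the mean) on log2(value + 1) for genes whose mean over the 8 mice reached 10, and p-values were BH-adjusted over all genes tested. The fit was tested on simulated data. Exact permutation tests were two-sided, and correlations used all 13824 permutations within genotypes (scipy 1.17.1, numpy 2.4.6, pandas 2.3.3, Python 3.11.15). Fold changes on this scale understate those of low genes. Values in every mouse are given for Col24a1, Col11a1, each collagen gene with an unadjusted p under 0.05 in any comparison and the highest gene per kb of each class. Of the pathway lists, genes under that p are named. The collagen classes, gene lists and marker lists were chosen with earlier results of these data known. Alternatives were another pseudocount (0.1), filters, priors and scalings, a single fit, blocks for the replicate number and for the start of the animal number, and leaving out each mouse.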

Additional observations from a re-analysis of the deposited data

Results flagged for a closer look

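Col4a1 in WT replicate 2, at 2983 normalized counts, stood far from the other 3 WT mice, which had 2261 to 2347. The gap to the next mouse was 0.881 of the whole range of the WT mice, above the 95% limit of Dixon's test for 4 values. This was 1 of 45 groups of 4 mice tested for the 15 collagen genes described one by one, and chance alone marks about 1 in 20 such groups. Without this mouse the log2 fold change of Col4a1 was -0.10 in HT and -0.03 in HM mice.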

How the results depend on the processing

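The replicate numbers of the labels did not pair the mice, since the correlation of same-numbered mice lay between -0.066 and 0.087 in the 3 comparisons. With the replicate block, the counts of collagen genes at an unadjusted p under 0.05 were 7 in HT against WT, 8 in HM against WT and 1 in HM against HT, and none passed the adjusted threshold. Pathway genes at that p numbered 1 in place of 2 in HM against WT and 5 in place of 8 in HM against HT. Over all genes, 1 in place of 2 passed the adjusted threshold in HM against WT.

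The collagen genes at an unadjusted p under 0.05 in HT mice numbered 8, but 4 without a trend in the variance prior, 5 with equal medians and 5 to 9 with a mouse left out. The 4 without a trend were 3 of the 8 and Col4a4. In HM mice the 8 genes became 7 to 10 with a mouse left out. With the animal number block 8 genes reached this p in HM mice, but only 3 of them were among the 8. The other 5 were Col17a1, Col25a1, Col2a1, Col4a1 and Col6a2. Between HM and HT mice the single gene became 0 in one fit of all 12 mice, 4 with the animal number block, 2 without a trend and 1 to 4 with a mouse left out. The 4 with the animal number block were Col16a1, Col4a2, Col4a5 and Col4a6, and Col6a3 was not among them. The cause was not tested. The count past the adjusted threshold stayed at 0 in each alternative and comparison except HT mice with a mouse left out (0 to 1, the 1 being Col24a1 without HT replicate 3). The median log2 fold change of the other collagens in HM mice was -0.17 with the animal number block, and in HT mice it ran from -0.13 to -0.026 with a mouse left out. For HM against HT, the basement membrane median was -0.21 with type IV chains only. Col11a1 in HM against HT turned from -0.03 to 0.0063 with the animal number block and ran from -0.094 to 0.0088 (the latter without HT replicate 3) with a mouse left out. When also centred by the start of the animal number, the correlation of Col5a1 with Col5a2 turned to -0.025, while that of Col4a3 with Col4a4 was 0.64, Col4a5 with Col4a6 0.45 and Col4a1 with Col4a2 0.76 (BH-adjusted p of 0.099, 0.359 and 0.118 in the permutation test), and pooled over genotypes those of Col11a1 with Col24a1 and with the neuronal markers turned to 0.58 and -0.50. Shares per kb of 17%, 43.1% and 39.9% with the median transcript are due to the lengths alone. For 19 fold changes of named genes, 189 of 190 values under alternatives that leave out no mouse kept their direction, the exception being Col11a1 above. All stayed over the adjusted threshold, but the smallest adjusted p in the main fits was 0.553 (limma, BH). Staying over it is therefore no measure of stability, and the unadjusted calls did change, as given above.

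With 4 mice per genotype and unknown depth, small differences of single genes could not be shown, and genes such as Col10a1, Col9a1 and Col4a3 have few counts. The animal number block rests on few mice, because number starts are shared by only some mice of each pair of genotypes, and what they mean is not given in the sources used here.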

Other observations

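The 8 collagen genes with lower HM values at an unadjusted p under 0.05 were set against the mean of 12 choroid plexus markers within genotypes (12 mice, 8 relations), a step chosen after seeing the data. Col8a2 had the highest correlation (r = 0.79, exact permutation p = 0.00673, BH-adjusted p = 0.0538, rho = 0.78, permutation p = 0.0106), and r was 0.86 without HM replicates 3 and 4. Col4a5 followed at r = 0.65 (rho = 0.57, exact permutation p = 0.0532, BH-adjusted 0.142), but at 0.32 without the same 2 mice. Col11a1 had r = 0.47 (rho = 0.49, exact permutation p = 0.032, BH-adjusted 0.128) and 0.47 without them. The others, Col9a1, Col24a1, Col26a1, Col6a4 and Col6a3, had r of 0.44, 0.35, 0.25, -0.05 and -0.25 and BH-adjusted p of 0.225 or more in the exact permutation test. No relation passed a BH-adjusted p of 0.05. Ttr, the most abundant of these markers, had 8995 to 18227 normalized counts in the 12 mice.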
